A study of Mus musculus with 47 samples.

Results

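Dcn, Bgn, Sparc, Fstl1, Postn, Pdgfra, Pdgfrb, Mmp2, Vim and Thy1 are 10 genes that mesenchymal cells such as fibroblasts and pericytes use, collagens left out, and their transcripts were followed here in sorted thymic epithelium. Each of the 10 was listed once in both tables of gene counts, among 55471 genes in the neonatal and 53402 in the adult table, and each passed the filter on low counts in both. They were selected on their measured levels in medullary thymic epithelial cells with low MHC class II (mTEClo) that lack EED and in their controls, where Dcn and Pdgfra stood far above the controls and Vim and Pdgfrb did not. The values in those cells are therefore given as a description with no test, and tests are given for cells with high MHC class II (mTEChi) and for adult cells.

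Mesenchymal cells build the stroma around epithelium by secreting matrix and by answering platelet-derived growth factor (PDGF). Dcn and Bgn encode small proteoglycans that bind collagen fibrils, Sparc, Fstl1 and Postn encode secreted proteins that modulate cell-matrix contacts and signaling, Pdgfra and Pdgfrb encode the PDGF receptors, Mmp2 encodes a protease that cleaves basement membrane collagen, Vim encodes the intermediate filament vimentin, and Thy1 encodes a surface glycoprotein of fibroblasts and T cells. In the thymus, mTECs also transcribe genes of other tissues at low levels, part of them through the regulator Aire, while EED belongs to the Polycomb repressor complex that methylates histone H3 and keeps developmental genes silent in many tissues.

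RNA was sequenced from mTECs of C57BL/6 mice, sorted as CD45- EpCAM+ Ly51- cells and split by MHC class II. The 24 neonatal libraries came from mice of 1 to 6 days and comprised 8 of Ctrl mice (5 mTEChi, 3 mTEClo), 7 of EEDcKO mice (3 mTEChi, 4 mTEClo), 6 of AireEEDdKO mice (3 of each fraction) and 3 mTEChi libraries of AireKO mice. The 23 adult libraries came from mice of 4 to 6 weeks and were mTEChi WT (n = 7) and AireKO (n = 4) and mTEClo WT (n = 8) and AireKO (n = 4). In both fractions the WT libraries were of 4 or 5 weeks and the AireKO libraries of 5 or 6 weeks, so age was not balanced between genotypes. EEDcKO mice carried floxed EED alleles and Foxn1-Cre, which acts in thymic epithelium, AireKO mice carried a knockout of Aire, and AireEEDdKO mice combined both. The study describes neonatal mTEChi libraries as each from a separate mouse. For the other groups no such statement was found, so their p-values measure the spread between these libraries, which may be technical, and whether mTEChi and mTEClo libraries came from the same mice is not stated.

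Total counts ran from 1578579 to 4817418 per neonatal library and from 1602125 to 3938588 per adult library, so that a count of 0 allows up to 2.05 CPM (the counts-per-million scale, with totals scaled by TMM factors) in the library whose scaled total was smallest. Eed lay at 10.6 to 19.7 CPM in libraries from EED-deficient mice and at 20.2 to 47.8 CPM in the other neonatal libraries, and Aire lay lower in each Aire-deficient library than in each Aire-sufficient library of its fraction and age. Summed CPM of 10 epithelial genes lay between 1990 and 3080 in neonatal libraries, with none of the 10 at 0 in a whole group. Of the neonatal groups, mTEClo Ctrl was all of 1 to 3 days, AireKO and AireEEDdKO were all of 4 to 6 days, and the others held both ages. Mitochondrial counts were absent from 6 adult libraries, namely all 4 of mTEChi AireKO and replicates 3 and 4 of mTEClo AireKO, and present in the other 17, so genotype and this kind of library cannot be told apart in adult mTEChi. In bulk RNA, fewer cells of a type and less RNA per cell cannot be told apart.

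Levels between genes were compared per kilobase of exon. In neonatal mTEChi Ctrl, Vim was the most abundant of the 10 at 56.2 ± 10.5 CPM per kb (SD, n = 5), followed by Sparc at 20.6 ± 3.40 and Pdgfrb at 15.9 ± 1.16. Postn at 1.35 ± 0.607 and Pdgfra at 0.627 ± 0.342 CPM per kb were the least abundant. In mTEClo Ctrl, Vim led with 43.8 ± 1.74 CPM per kb (n = 3), and Sparc at 32.5 ± 3.60, Fstl1 at 30.4 ± 6.78 and Mmp2 at 20 ± 2.85 came next. In mTEClo EEDcKO the order differed: Sparc at 70.1 ± 9.50, Fstl1 at 49.3 ± 3.94, Dcn at 36.0 ± 3.82 and Mmp2 at 34.9 ± 4.49 CPM per kb stood above Vim at 25.6 ± 6.45 (n = 4).

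**Figure D1:**
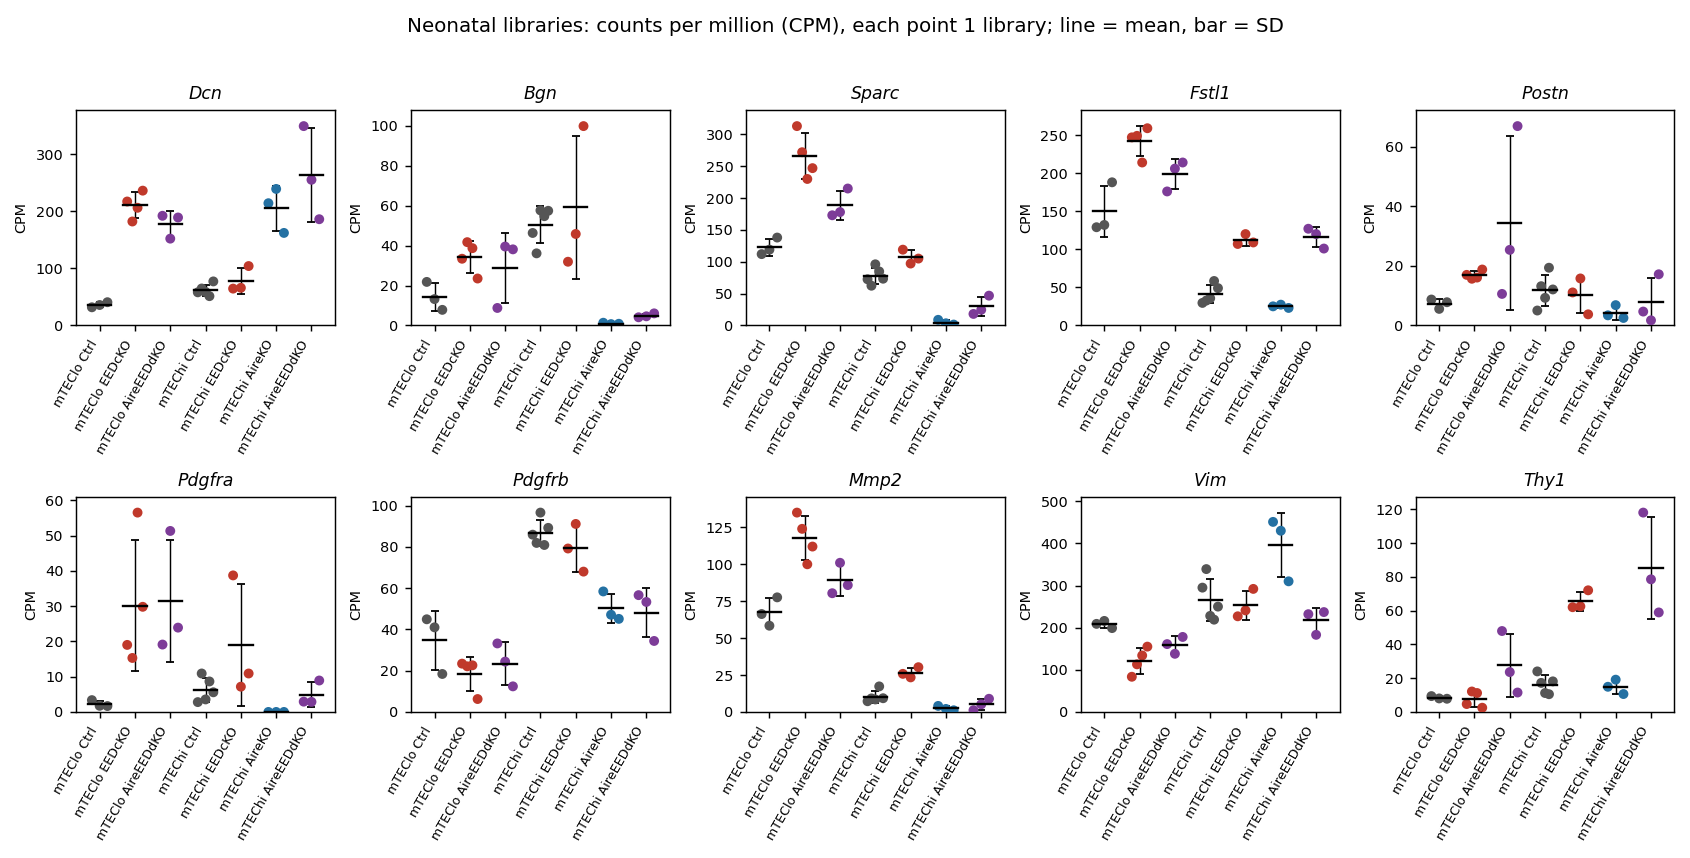
Levels of the 10 genes in the 24 neonatal libraries, in CPM on a linear axis from 0, with a point for each library, a line for the group mean and a bar for the SD. In mTEClo (the 3 groups on the left of each panel) Dcn, Pdgfra, Sparc, Postn and Mmp2 lay higher in all EED-deficient than in all Ctrl libraries. In mTEChi (the 4 groups on the right) Fstl1, Thy1 and Sparc did so against the matching EED-sufficient group.

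Loss of EED in mTEChi was examined in the presence of Aire (EEDcKO against Ctrl) and in its absence (AireEEDdKO against AireKO). Fstl1 and Thy1 rose in both comparisons, by 2.68-fold and 4.16-fold with Aire and by 4.64-fold and 5.88-fold without it. Mmp2 and Pdgfra rose with Aire, Sparc and Pdgfra rose without it, and Dcn, Vim, Pdgfrb, Postn and Bgn were called in neither comparison. With Aire, 4 of the 10 genes were called higher and 0 lower, where 8.48% of the 20196 genes tested were called higher and 5.4% lower. Without Aire, 4 of 10 were called higher and 0 lower, where 6.69% of all genes were called higher and 2.78% lower. The median log2 fold change of the 10 genes was 0.39 with Aire and 1.83 without it, against 0 and 0.03 over all genes. A call required an adjusted p under 0.05 in edgeR's quasi-likelihood test and a change of at least 2-fold, and log2 fold changes are given ± SE.

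Of the proteoglycans, Dcn (chromosome 10, 97479609 to 97518143, GRCm38, plus strand) measured 58.0, 64.7, 58.7, 51.3 and 77.1 CPM in the mTEChi Ctrl libraries and 64.5, 65.9 and 104 CPM in EEDcKO. It measured 214, 239 and 162 CPM in AireKO and 349, 255 and 186 CPM in AireEEDdKO. Ranges overlapped in both EED comparisons, which gave log2 fold changes of 0.34 ± 0.19 (adjusted p 0.18) and 0.36 ± 0.20 (adjusted p 0.25), whereas every Aire-deficient library stood above every Aire-sufficient one. Bgn (chromosome X, 73483602 to 73495933, plus strand) measured 46.3, 36.1, 57.6, 54.7 and 57.4 CPM in Ctrl and 31.9, 45.8 and 99.8 CPM in EEDcKO, a log2 fold change of 0.24 ± 0.34 (adjusted p 0.64). It measured 1.36, 0.683 and 0.841 CPM in AireKO, a total of 6 counts, and 4.09, 4.58 and 6.05 CPM in AireEEDdKO. These last groups did not overlap, but the log2 fold change of 2.40 ± 0.93 missed the threshold with an adjusted p of 0.078. DESeq2 gave an adjusted p of 0.015 for it.

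Among the secreted matricellular proteins, Fstl1 (chromosome 16, 37776873 to 37836514, plus strand) measured 29.6, 32.7, 35.7, 58.4 and 49.0 CPM in mTEChi Ctrl and 107, 120 and 109 CPM in EEDcKO. It measured 25.1, 27.3 and 23 CPM in AireKO and 127, 120 and 101 CPM in AireEEDdKO. EED-deficient libraries lay above all others at about the same level with and without Aire, with log2 fold changes of 1.42 ± 0.17 (adjusted p 3.1e-06) and 2.21 ± 0.21 (adjusted p 3.3e-07).

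Sparc (chromosome 11, 55394500 to 55423183, minus strand) measured 72.5, 62.4, 96, 84.8 and 73.4 CPM in mTEChi Ctrl and 119, 97.2 and 105 CPM in EEDcKO. Although these groups did not overlap, the log2 fold change was 0.44 ± 0.22 with an adjusted p of 0.12. In AireKO it measured 8.83, 3.42 and 1.4 CPM and in AireEEDdKO 18.1, 24.6 and 46.8 CPM, a log2 fold change of 3.05 ± 0.41 (adjusted p 1.9e-05) that left it below every Ctrl library. It was 3.91 without AireKO replicate 1 and 2.33 without AireKO replicate 3. The EED effect on Sparc without Aire exceeded that with Aire by 2.61 ± 0.48 on the log2 scale (adjusted p 0.012), and it was the only one of the 10 called in this interaction, where 1.25% of all genes were called. Without AireKO replicate 3 the difference was 1.91 and was not called (adjusted p 0.073), and without AireKO replicate 1 it was 3.46. Postn (chromosome 3, 54361109 to 54391037, plus strand) varied within groups, from 5.02 to 19.4 CPM among Ctrl libraries, 3.74 to 15.8 CPM among EEDcKO, 2.52 to 6.83 CPM among AireKO and 1.72 to 17.2 CPM among AireEEDdKO libraries. Its log2 fold changes of −0.22 ± 0.55 and 1.16 ± 0.77 were within this spread (adjusted p 0.79 and 0.34).

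The PDGF receptors differed from each other. Pdgfra (chromosome 5, 75152292 to 75198215, plus strand) measured 2.79, 10.9, 3.55, 8.64 and 5.57 CPM in mTEChi Ctrl and 38.7, 7.16 and 10.9 CPM in EEDcKO. The ranges overlapped, and the log2 fold change of 1.48 ± 0.56 (adjusted p 0.049) rested largely on EEDcKO replicate 1, of 6 days. Without that library it was 0.53 and not called (adjusted p 0.50), and the call was lost when any of 5 of the 8 libraries was left out. Among libraries of 1 to 3 days it was 0.58 (adjusted p 0.26). Pdgfra had 0 counts in all 3 AireKO libraries and measured 2.92, 2.86 and 8.91 CPM in AireEEDdKO, at least 12.5-fold higher than the limit of 3 counts over the AireKO group (adjusted p 0.017). That call was lost without AireKO replicate 3 (adjusted p 0.097) or without AireEEDdKO replicate 3 (adjusted p 0.11). Exons of Pdgfra overlap those of 2 genes on the opposite strand and of Mir7025 on the same strand. Counts were made without strand, and how reads in these overlaps were assigned is not stated.

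Pdgfrb (chromosome 18, 61045150 to 61085061, plus strand) measured 85.9, 81.9, 96.6, 80.9 and 89.2 CPM in mTEChi Ctrl and 79.2, 91.1 and 68.0 CPM in EEDcKO. It measured 58.4, 47.1 and 45.1 CPM in AireKO and 56.6, 53.3 and 34.4 CPM in AireEEDdKO. Both pairs overlapped, with log2 fold changes of −0.13 ± 0.29 (adjusted p 0.77) and −0.07 ± 0.35 (adjusted p 0.93).

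Mmp2 (chromosome 8, 92827291 to 92853420, plus strand) measured 7.25, 9.17, 8.46, 17.3 and 9.29 CPM in mTEChi Ctrl and 25.8, 23.4 and 30.3 CPM in EEDcKO, a rise of 1.32 ± 0.27 on the log2 scale (adjusted p 0.00083) with no overlap. In AireKO it measured 4.08, 2.05 and 1.12 CPM and in AireEEDdKO 1.17, 5.16 and 8.91 CPM, with a log2 fold change of 1.44 ± 0.55 that missed the threshold (adjusted p 0.077) and overlapping ranges, while DESeq2 gave an adjusted p of 0.033. Vim (chromosome 2, 13573927 to 13582826, plus strand) measured 295, 339, 228, 219 and 250 CPM in Ctrl and 227, 241 and 292 CPM in EEDcKO, a log2 fold change of −0.07 ± 0.17 (adjusted p 0.81). In AireKO it measured 451, 430 and 310 CPM and in AireEEDdKO 232, 183 and 237 CPM. Every AireEEDdKO library lay below every AireKO library, and the log2 fold change of −0.86 ± 0.19 had an adjusted p of 0.0035 but was under 2-fold, so Vim was not called.

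Thy1 (chromosome 9, 44043384 to 44048579, plus strand) measured 24, 17.2, 11.2, 10.5 and 18.1 CPM in mTEChi Ctrl and 62.0, 62.5 and 72.0 CPM in EEDcKO, a log2 fold change of 2.06 ± 0.37 (adjusted p 0.00024). It measured 14.9, 19.1 and 10.6 CPM in AireKO and 118, 78.5 and 58.9 CPM in AireEEDdKO, a log2 fold change of 2.56 ± 0.46 (adjusted p 0.00044). All 6 EED-deficient mTEChi libraries lay above all 8 EED-sufficient ones. Thymocytes carry Thy1 too. Of the 8 thymocyte markers tested, among 12 listed, 0 were called higher in either comparison, and the summed CPM of the list ranged, for Ctrl, from 86.5 to 108, for EEDcKO from 44.9 to 75.2, for AireKO from 55.7 to 79.9 and for AireEEDdKO from 53.8 to 56.6. The part of thymocytes in the Thy1 values was not tested.

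**Figure D2:**
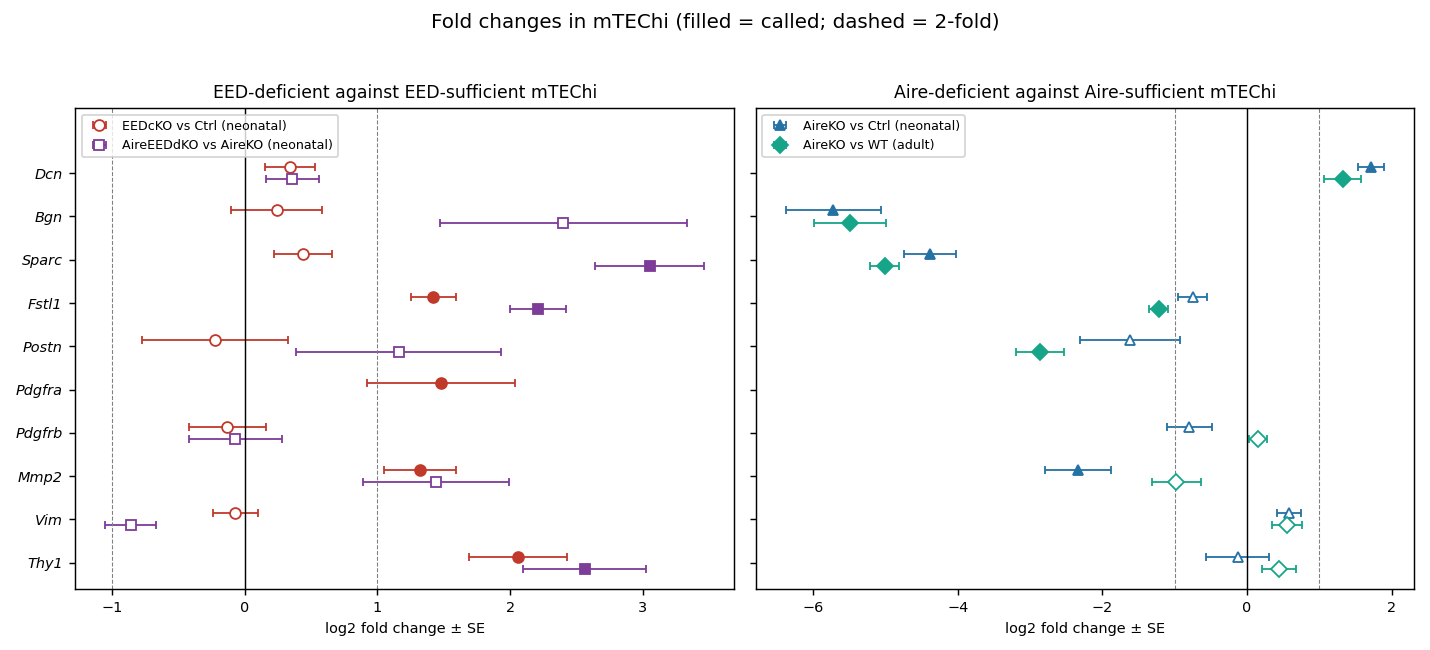
Log2 fold changes ± SE of the 10 genes in mTEChi, for EED-deficient against EED-sufficient groups (left) and Aire-deficient against Aire-sufficient groups (right), where filled symbols were called and dashed lines mark 2-fold. Pdgfra is drawn only for EEDcKO against Ctrl, since it had 0 to 2 counts in all AireKO mTEChi together at either age. Fstl1 and Thy1 are called on the left in both comparisons, and Sparc and Bgn are called lower on the right in both.

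Many collagens and mesenchymal transcription factors rose with loss of EED in mTEChi, as only part of the members did. Over all genes tested, 8.48% were called higher with Aire and 6.69% without it. Of 8 fibrillar and type VI collagens, 6 were called higher with Aire and 6 without it, with medians of 1.59 and 2.51 on the log2 scale. Col6a1 and Col6a2, chains of type VI collagen, changed by 1.91 ± 0.25 (adjusted p 7.7e-06) and 2.47 ± 0.30 (adjusted p 4.6e-06) with Aire. Summed collagen CPM went from 383 to 475 among Ctrl libraries, 1020 to 1280 among EEDcKO, 177 to 202 among AireKO and 658 to 795 among AireEEDdKO libraries, with none of the 8 at 0 in a whole group. Of 14 mesenchymal transcription factors, 12 were tested and 7 were called higher with Aire and 6 without it. Twist1, which drives mesenchymal programs, rose by 3.24 ± 0.39 with Aire (adjusted p 3.9e-06) and by 2.50 ± 0.61 without it (adjusted p 0.0059). Foxf1, a factor of mesoderm, rose by 1.94 ± 0.32 with Aire (adjusted p 0.00011) and by 4.80 ± 0.59 without it (adjusted p 6.8e-06). Snai2, the most abundant factor of this list per kb, was not called (0.60 ± 0.27, adjusted p 0.084, with Aire). Summed CPM of the 14 was 93.4 to 125 in Ctrl and 218 to 260 in EEDcKO, and 95.6 to 129 in AireKO and 294 to 343 in AireEEDdKO. These lists mark fibroblasts as well, and their part in the rises of Fstl1, Mmp2, Thy1, Pdgfra and Sparc was not tested.

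The other families around the members moved less evenly. Of 9 small leucine-rich proteoglycans related to Dcn and Bgn, 1 was called higher and 3 lower with Aire, and 0 in either direction without it. Of 17 matricellular genes tested, 7 were called higher and 2 lower with Aire, and 6 and 0 without it. The elastic fiber and fibroblast matrix list had 7 of 17 called higher with Aire and 6 without it. Of the 4 PDGF ligand genes, only Pdgfc was called in either EED comparison, higher in both. Among 11 tested MMP and TIMP genes, 4 were called higher and 1 lower with Aire, and 3 and 0 without it. Of 10 mural cell markers tested, 5 and 4 were called higher, with a summed CPM of 870 to 1120 (Ctrl), 1320 to 1570 (EEDcKO), 1200 to 1530 (AireKO) and 1610 to 1880 (AireEEDdKO), while Pdgfrb, which mural cells carry, was not called. Of 9 endothelial markers tested, 1 was called higher in each comparison and 1 lower with Aire.

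**Figure D3:**
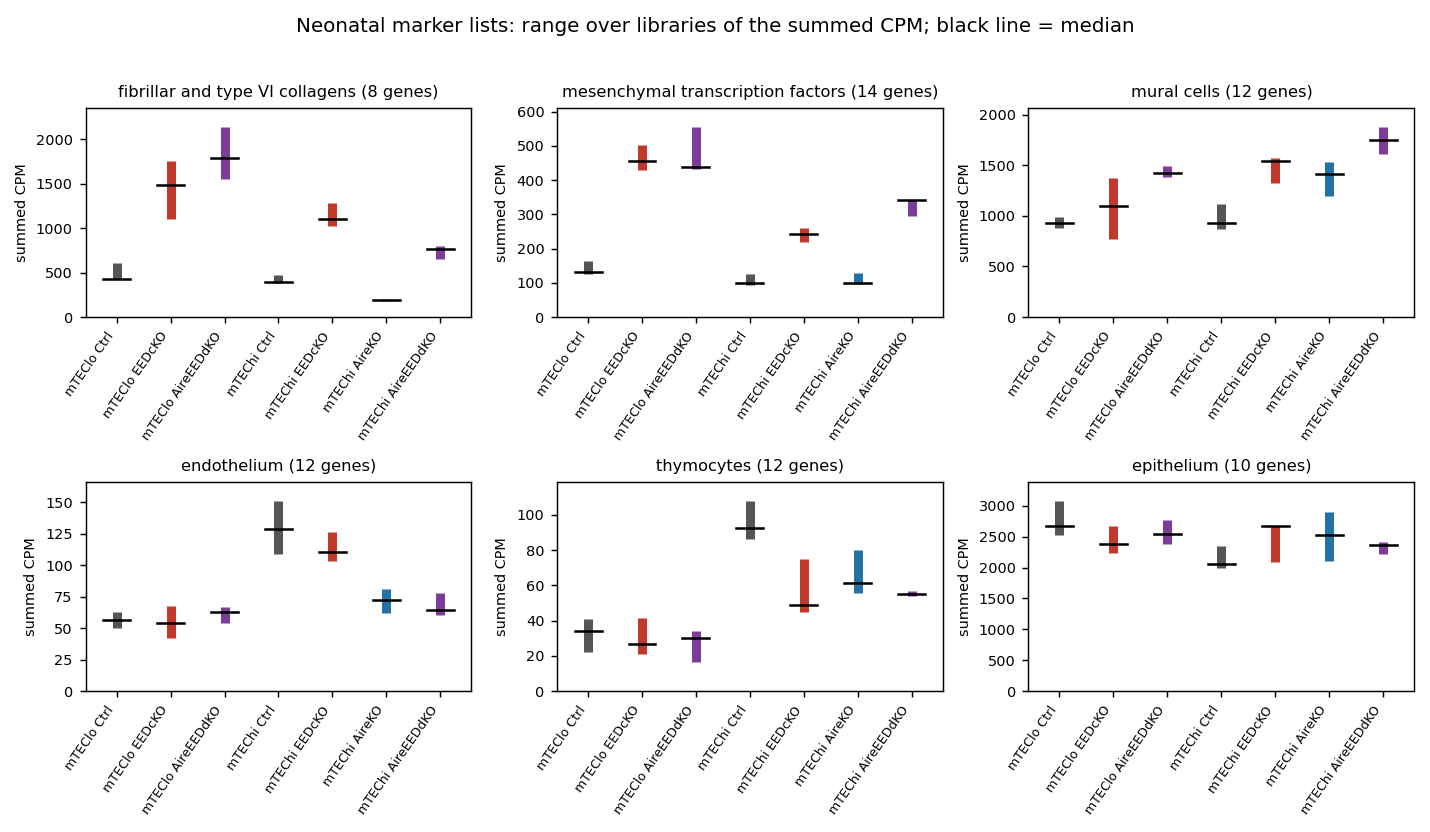
Summed CPM of 6 gene lists in the 7 neonatal groups, with a bar from the lowest to the highest library and a black line at the median, on linear axes from 0. The collagen and transcription factor lists lie higher in EED-deficient than in matching EED-sufficient groups of mTEChi and than Ctrl in mTEClo, and the endothelial and thymocyte lists do not. The mural cell list lies higher in both mTEChi comparisons and in mTEClo AireEEDdKO, and overlaps Ctrl in mTEClo EEDcKO.

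In mTEClo, the cells on which the genes were chosen, the 10 genes split. Dcn measured 31.8, 35.8 and 40.7 CPM in Ctrl, 217, 182, 206 and 236 CPM in EEDcKO and 192, 152 and 189 CPM in AireEEDdKO, so that EEDcKO lay 5.86-fold and AireEEDdKO 4.95-fold above Ctrl. Pdgfra measured 3.35, 1.74 and 1.67 CPM in Ctrl, 19.0, 15.3, 56.5 and 29.8 CPM in EEDcKO and 19.1, 51.3 and 23.9 CPM in AireEEDdKO, 12.9-fold and 13.4-fold above Ctrl. For both genes no EED-deficient library overlapped Ctrl. Sparc measured 112, 119 and 138 CPM in Ctrl, 313, 272, 230 and 247 CPM in EEDcKO and 173, 178 and 215 CPM in AireEEDdKO, and Bgn measured 21.8, 13.2 and 7.81 CPM, then 33.4, 41.7, 38.7 and 23.5 CPM, then 8.76, 39.5 and 38.1 CPM. Sparc was 2.16-fold and Bgn 2.32-fold higher in EEDcKO than in Ctrl. AireEEDdKO replicate 1, at 8.76 CPM of Bgn, lay within the Ctrl range.

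Fstl1, Postn and Mmp2 also lay above Ctrl in every mTEClo EEDcKO library. Fstl1 measured 129, 132 and 188 CPM in Ctrl and 247, 249, 214 and 259 CPM in EEDcKO, and Mmp2 66.3, 58.4 and 77.6 CPM and then 135, 124, 100 and 112 CPM. Postn measured 8.71, 5.57 and 7.81 CPM in Ctrl, 17, 15.7, 16.1 and 18.8 CPM in EEDcKO and 10.6, 25.4 and 67.0 CPM in AireEEDdKO. Of these, only Postn was at least 2-fold higher in EEDcKO, at 2.30-fold, and its AireEEDdKO libraries were the most spread of all.

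Vim, Pdgfrb and Thy1 did not lie above Ctrl in mTEClo EEDcKO. Vim measured 209, 216 and 199 CPM in Ctrl, 83.5, 113, 134 and 155 CPM in EEDcKO and 161, 138 and 178 CPM in AireEEDdKO, with every EED-deficient library below every Ctrl library. Pdgfrb measured 44.9, 41.0 and 18.4 CPM in Ctrl, 23.4, 22.1, 22.6 and 6.26 CPM in EEDcKO and 33.2, 24.4 and 12.4 CPM in AireEEDdKO, which overlap. Thy1 measured 9.38, 8 and 7.81 CPM in Ctrl, 4.68, 12.1, 11.2 and 2.50 CPM in EEDcKO and 47.9, 23.6 and 11.5 CPM in AireEEDdKO. Thy1 thus lay above Ctrl in AireEEDdKO but not in EEDcKO. In all, 5 of the 10 genes were at least 2-fold higher in EEDcKO than in Ctrl and 0 at least 2-fold lower, where 11.8% of all genes were at least 2-fold higher and 9.84% lower. In AireEEDdKO the counts were 4 and 0, where 14.6% and 11.8% of all genes were. By library, 7 members lay wholly above Ctrl and 1 wholly below it in EEDcKO, where 18.7% and 17.8% of all genes did, and 6 and 1 in AireEEDdKO, where 26.2% and 25.6% did. Between the EED-deficient groups, Postn (1.03) and Thy1 (1.83) were at least 2-fold higher in AireEEDdKO than in EEDcKO and 0 members at least 2-fold lower, where 6.69% and 5.92% of all genes were.

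Age differed between these mTEClo groups. With EEDcKO libraries of 1 to 3 days alone, EEDcKO against Ctrl gave log2 differences of 2.42 for Dcn and −1.14 for Vim, against 2.55 and −0.77 with all 4 libraries. Pdgfra gave 2.80 against 3.69, and its highest values, 56.5 and 29.8 CPM, were in the libraries of 6 and 4 days. AireEEDdKO and Ctrl shared no age class in mTEClo, where only EEDcKO held both. With age class as a term over all neonatal groups, AireEEDdKO against Ctrl gave 2.53 for Pdgfra, against 3.74 without it, −0.72 against −0.39 for Vim, 0.81 against 0.62 for Sparc and 0.70 against 0.41 for Mmp2, while Dcn gave 2.34 against 2.31. Summed collagen CPM reached 425 to 613 among mTEClo Ctrl libraries, 1100 to 1760 among EEDcKO and 1550 to 2140 among AireEEDdKO libraries, and that of the mesenchymal transcription factors was 127 to 165, 429 to 503 and 433 to 556. Endothelial markers summed to 49.7 to 63.0, 42.1 to 67.8 and 53.8 to 66.6 CPM, and mural cell markers to 880 to 991, 776 to 1370 and 1380 to 1490 CPM. The study sorted cortical epithelium as Ly51+ cells, which were left out of these libraries. The 7 genes of cortical epithelium summed to 2390 to 3570 CPM for mTEClo Ctrl. They summed to 474 to 1190 CPM for EEDcKO and 461 to 576 CPM for AireEEDdKO. Which cells held these transcripts was not tested. The part of these lists in the members' values was not tested.

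Loss of Aire in mTEChi was examined in neonates (AireKO against Ctrl) and adults (AireKO against WT). In neonates, Pdgfra, Sparc, Bgn and Mmp2 fell and Dcn rose, and in adults Pdgfra, Sparc, Fstl1, Postn and Bgn fell and Dcn rose. Bgn was 52.7-fold lower in neonates and 44.8-fold lower in adults, Sparc 20.8-fold and 32.3-fold lower, and Dcn 3.29-fold and 2.49-fold higher. In neonates 1 of the 10 genes was called higher and 4 lower, where 3.56% of all genes were called higher and 12.8% lower. In adults the counts were 1 and 5, where 5.09% and 18.3% of 19310 genes were. The medians of the 10 were −1.21 and −1.10 on the log2 scale, against 0.03 and −0.05 over all genes. The neonatal comparison shares its Ctrl libraries with EEDcKO against Ctrl and its AireKO libraries with AireEEDdKO against AireKO. AireKO was all of 4 to 6 days and Ctrl held both ages, and with libraries of 4 to 6 days alone the neonatal calls stood.

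Of the proteoglycans, Dcn lay at 25.1 to 40.7 CPM with a median of 29.1 in adult mTEChi WT and at 57.8, 65.2, 83.2 and 91.3 CPM in AireKO, with no overlap. Its log2 fold changes were 1.32 ± 0.25 in adults (adjusted p 5.4e-05) and 1.72 ± 0.18 in neonates (adjusted p 1.7e-06). With age in weeks as a term the adult change was 1.00 (adjusted p 0.0026), under 2-fold and not called. The adult AireKO mTEChi libraries all lacked mitochondrial counts. In mTEClo AireKO, given below, Dcn lay above WT in the libraries without mitochondrial counts and below WT in those with them. Bgn lay at 29.1 to 59.3 CPM with a median of 45.5 in adult WT and at 1.28, 0.395, 0.666 and 1.62 CPM in AireKO, a total of 10 counts. Bgn moved the other way, by −5.49 ± 0.50 in adults (adjusted p 5.7e-10) and −5.72 ± 0.66 in neonates (adjusted p 3.5e-06), although both encode closely related proteoglycans.

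Sparc lay at 68.1 to 91.2 CPM with a median of 78.7 in adult mTEChi WT and at 2.14, 1.98, 3.66 and 1.62 CPM in AireKO. It changed by −5.01 ± 0.20 in adults (adjusted p 1.0e-16) and by −4.38 ± 0.36 in neonates (adjusted p 8.6e-08), the smallest p of the 10 at both ages. The neonatal value rests on 23 counts in AireKO and was −5.23 without AireKO replicate 1 and −3.72 without AireKO replicate 3. Fstl1 lay at 28.1 to 46.7 CPM with a median of 41.1 in adult WT and at 15.4, 19.8, 15.0 and 18.3 CPM in AireKO, a change of −1.22 ± 0.13 (adjusted p 1.6e-08), and in neonates it changed by −0.75 ± 0.20 (adjusted p 0.0069, under 2-fold and not called). With neonatal libraries of 4 to 6 days alone the Fstl1 change was −0.42 (adjusted p 0.14). Postn lay at 8.28 to 19.8 CPM with a median of 11.5 in adult WT and at 2.14, 1.58, 1.66 and 1.62 CPM in AireKO, a change of −2.86 ± 0.33 (adjusted p 3.4e-08). In neonates its change of −1.62 ± 0.69 missed the threshold (adjusted p 0.079) with overlapping ranges, while DESeq2 gave an adjusted p of 0.043. The differences between ages were not tested.

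Pdgfra lay at 2.69 to 13.1 CPM with a median of 4.96 in adult mTEChi WT and had 0, 1, 0 and 1 counts in AireKO. The ratio of WT to AireKO was 29.9 with an exact 95% counting interval from 8.07 to 250 (adjusted p 1.4e-06). In neonates AireKO was at least 13.3-fold lower than Ctrl, from 0 counts (adjusted p 0.0057). Pdgfrb was called in neither comparison, with 80.1 to 128 CPM and a median of 93.2 in adult WT and 122, 118, 93.8 and 99.0 CPM in AireKO (0.15 ± 0.13, adjusted p 0.34). In neonates it changed by −0.80 ± 0.31 (adjusted p 0.055), and with library size alone as the scaling by −1.02 (adjusted p 0.019).

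Mmp2 lay at 2.50 to 11.4 CPM with a median of 7.79 in adult mTEChi WT and at 3.85, 4.35, 3.66 and 3.24 CPM in AireKO, which overlap. Its adult change of −0.98 ± 0.34 (adjusted p 0.015) was just under 2-fold, and it passed with library size alone as the scaling (−1.10, adjusted p 0.0088). Its neonatal change of −2.34 ± 0.46 was called (adjusted p 0.00068) and rests on 13 counts in AireKO. Vim lay at 196 to 230 CPM with a median of 206 in adult WT and at 359, 340, 242 and 271 CPM in AireKO, a log2 fold change of 0.55 ± 0.21 (adjusted p 0.028), and changed by 0.58 ± 0.17 in neonates (adjusted p 0.014), both under 2-fold. With neonatal libraries of 4 to 6 days alone the Vim change was 0.23 (adjusted p 0.45). Thy1 lay at 15.2 to 33.1 CPM with a median of 29.0 in adult WT and at 55.7, 39.1, 26.0 and 25.6 CPM in AireKO (0.44 ± 0.24, adjusted p 0.12), and it changed by −0.13 ± 0.44 in neonates (adjusted p 0.86).

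The collagens moved with the members that fell: 6 of 8 were called lower at each age, with summed CPM of 365 to 639 in adult mTEChi WT and 130 to 267 in AireKO. Of the mesenchymal transcription factors, 5 of 12 tested were called lower and 1, Zeb2, higher in neonates, and 4 of 8 lower and 0 higher in adults, and Twist2, Tcf21 and Meox2 were at 0 in every AireKO library at both ages. Of the thymocyte markers, 1 of 8 tested was called lower in neonates and 6 of 7 in adults, and of the endothelial markers 3 of 9 and 5 of 9, with summed endothelial CPM of 138 to 170 in adult WT and 71.1 to 98.5 in AireKO. Of the 9 small leucine-rich proteoglycans, 4 were called lower and 2, Lum and Epyc, higher in neonates, and 6 lower and 1, Epyc, higher in adults. The part of these lists was not tested.

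Among EED-deficient mTEChi, the Aire-deficient ones (AireEEDdKO) differed from EEDcKO in 4 members. Dcn was higher by 1.74 ± 0.21 (adjusted p 1.0e-05), and Sparc, Bgn and Mmp2 were lower by −1.78 ± 0.27 (adjusted p 9.3e-05), −3.55 ± 0.51 (adjusted p 5.5e-05) and −2.22 ± 0.36 (adjusted p 0.00017). Bgn was −2.95 without EEDcKO replicate 3, and Mmp2 was −3.05 without AireEEDdKO replicate 3. That made 1 gene called higher and 3 lower of 10, where 4.99% of all genes were called higher and 8.36% lower. Pdgfra changed by −1.68 ± 0.68 (adjusted p 0.081) and passed with DESeq2 (−1.91, adjusted p 0.026) and with age class as a term (−2.29, adjusted p 0.012). AireEEDdKO was all of 4 to 6 days and EEDcKO held 1 library of that age, and with age class as a term the 4 calls stood.

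Pdgfra, Bgn and Postn, all called lower in adult AireKO mTEChi, have a listed start whose 250 preceding bases lie outside every annotated exon, and these bases are shown so that the sequence before the start can be read beside the values above. They come from RefSeq on GRCm38.p6, run 5′ to 3′ on the gene's strand, and have the dinucleotide CG, which is the same on both strands and is where vertebrate DNA is methylated, in capitals.
Pdgfra, chr5:75152001-75152250, plus strand: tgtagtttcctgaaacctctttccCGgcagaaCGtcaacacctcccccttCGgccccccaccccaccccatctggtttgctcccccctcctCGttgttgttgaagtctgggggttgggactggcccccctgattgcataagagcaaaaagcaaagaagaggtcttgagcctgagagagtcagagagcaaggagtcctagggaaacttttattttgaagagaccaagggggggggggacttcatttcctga
Bgn, chrX:73483351-73483600, plus strand: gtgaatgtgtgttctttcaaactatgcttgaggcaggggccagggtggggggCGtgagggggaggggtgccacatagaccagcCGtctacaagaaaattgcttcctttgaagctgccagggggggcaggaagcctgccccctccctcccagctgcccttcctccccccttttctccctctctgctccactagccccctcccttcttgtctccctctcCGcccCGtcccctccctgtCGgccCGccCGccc
Postn, chr3:54360857-54361106, plus strand: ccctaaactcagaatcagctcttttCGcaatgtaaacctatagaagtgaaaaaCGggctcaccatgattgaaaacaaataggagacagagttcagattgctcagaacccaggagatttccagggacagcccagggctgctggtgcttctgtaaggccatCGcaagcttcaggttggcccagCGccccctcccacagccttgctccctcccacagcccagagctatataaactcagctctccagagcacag
Pdgfra held 4 CG, Bgn 7 and Postn 4 in these 250 bases, where the median over 32851 listed starts was 6 with quartiles of 2 and 16. The letters TATAA, searched on both strands, were in the Postn and in neither of the other sequences, and 22.8% of all listed starts had them. Postn has a second listed start, not shown, whose 250 bases also lie outside annotated exons and held 3 CG and no TATAA. For Fstl1 and Sparc the 250 bases before the listed start overlap annotated exons, unlike the sequences shown, and those of Sparc lie inside the annotated gene. Those of Fstl1 held 16 CG, a number that 25.4% of listed starts reached, and those of Sparc held 4. Starts were listed for 6 of the 10 genes, with 2 for Postn.

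Loss of Aire in adult mTEClo called 0 of the 10 genes, where 4.61% of all genes were called higher and 3.7% lower. In edgeR's test 5 had an unadjusted p under 0.05, 2 passed at an adjusted p under 0.05 with no minimum change, Pdgfrb and Postn, and DESeq2 called 1, Thy1 (1.56, adjusted p 0.016). Pdgfrb lay at 6.24 to 16.0 CPM with a median of 9.92 in WT and at 14.7, 16.8, 18.9 and 16.9 CPM in AireKO (0.72 ± 0.18, adjusted p 0.0037). Postn lay at 13 to 24.8 CPM with a median of 19.3 in WT and at 28.9, 40.5, 22.2 and 28.0 CPM in AireKO (0.56 ± 0.19, adjusted p 0.028). Both ranges overlap by 1 AireKO library.

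The 2 kinds of mTEClo AireKO library stood apart from each other for several genes, Dcn, Bgn and Vim among them, and on opposite sides of WT for Dcn. The Postn values given above did not overlap between the 2 kinds either, but only by a narrow margin. Dcn measured 19.6 and 26.1 CPM in AireKO replicates 1 and 2, of 5 weeks, and 78.9 and 97.4 CPM in replicates 3 and 4, of 6 weeks and without mitochondrial counts, while WT lay at 34.1 to 47.2 CPM. Bgn measured 6.00 and 3.11 CPM and then 25.2 and 20.6 CPM, with WT at 5.24 to 13.1 CPM. Vim went the other way, with 179 and 274 CPM and then 88.5 and 81.7 CPM, and WT at 101 to 200 CPM. With only libraries that had mitochondrial counts, the log2 difference from WT was −0.86 for Dcn (adjusted p 0.0017), −0.96 for Bgn (adjusted p 0.17) and 0.48 for Vim (adjusted p 0.047), against 0.52, 0.77 and −0.09 with all. For Mmp2 it was −0.43 (adjusted p 0.21), against 0.01 with all. Fstl1 varied little, with 171, 165, 164 and 164 CPM in AireKO and 152 to 202 CPM in WT.

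**Figure D4:**
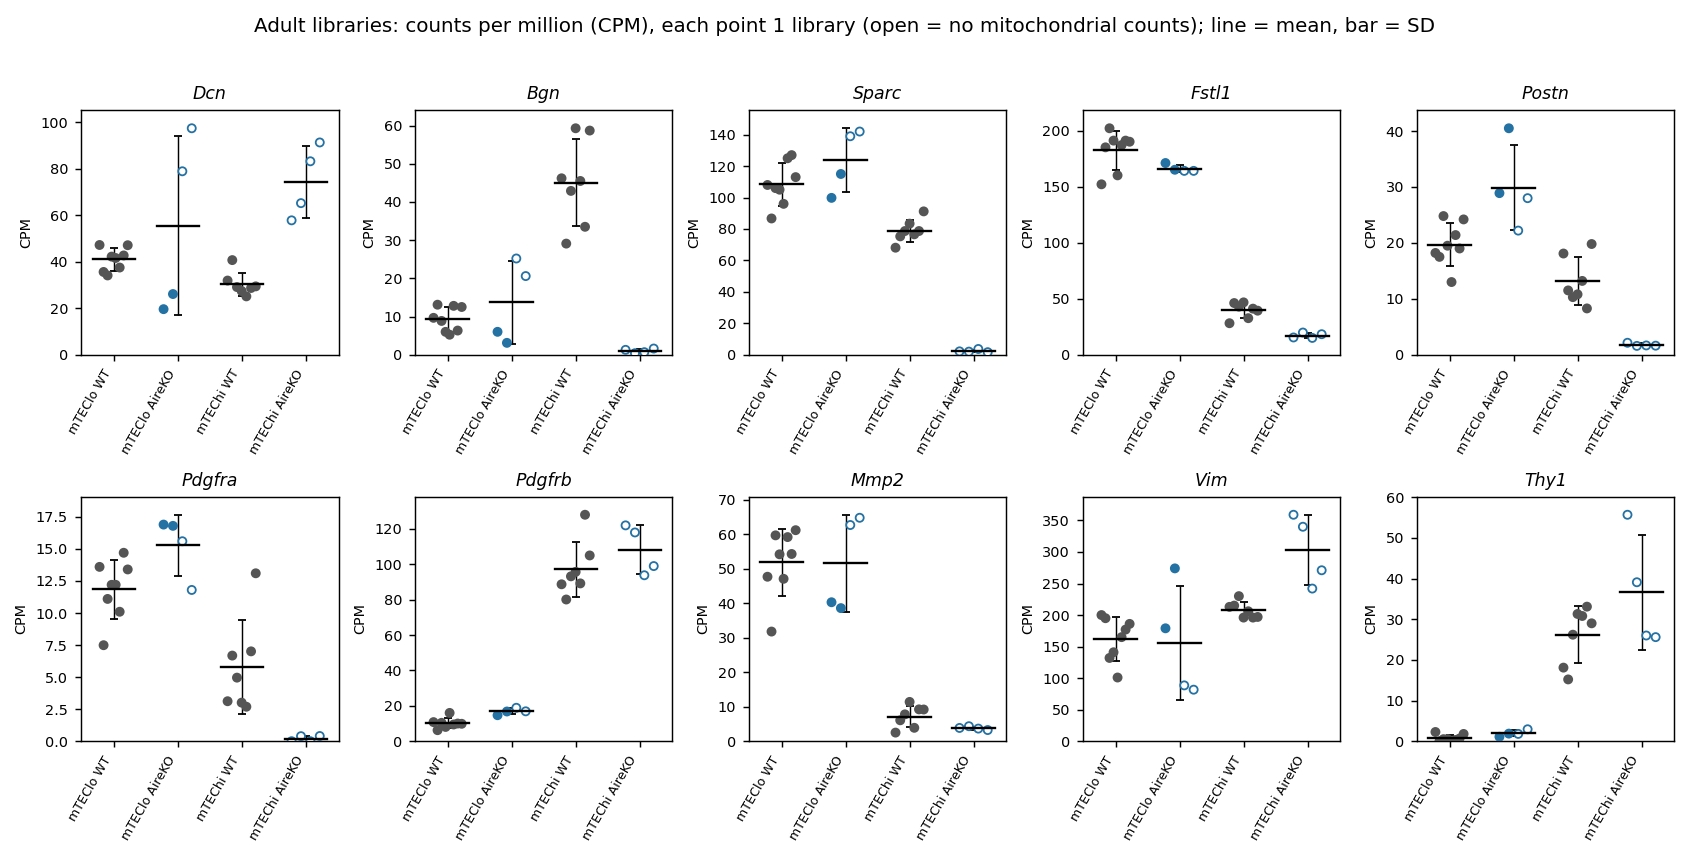
Levels of the 10 genes in the 23 adult libraries, in CPM on a linear axis from 0, with a point for each library (open where it had no mitochondrial counts), a line for the group mean and a bar for the SD. In mTEChi, Sparc, Bgn, Postn and Pdgfra lie near 0 in all 4 AireKO libraries, and in mTEClo AireKO the open and filled points of Dcn, Bgn and Vim, among others, lie apart.

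The 2 mTEC fractions were compared in adults, with tests, and in neonates as a description. In adult WT, Pdgfrb, Bgn and Thy1 were higher in mTEChi by 9.42-fold, 5.00-fold and 36.6-fold, and Pdgfra, Fstl1 and Mmp2 were lower by 2.05-fold, 4.59-fold and 6.97-fold. That made 3 of 10 called higher and 3 lower, where 23.8% of all genes were called higher and 12.3% lower. In adult AireKO, 2 were called higher, Pdgfrb by 6.34-fold and Thy1 by 17.1-fold, and 6 lower, where 17.8% and 17.5% of all genes were. Those called lower included Sparc, by 50.9-fold, and Bgn, by 15.2-fold, which was higher in mTEChi than in mTEClo of WT. Vim changed by 1.00 ± 0.24 in AireKO (adjusted p 0.00089), just under 2-fold, and by 1.84 with only the libraries that lacked mitochondrial counts (adjusted p 1.6e-06). The replicate numbers of these 2 groups were taken to pair them, from the data and not the labels. With that block Vim was called (1.12, adjusted p 3.4e-06), which made 9 members called in place of 8.

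In adult mTEClo WT, Pdgfra lay at 7.49 to 14.7 CPM with a median of 12.2, Fstl1 at a median of 188 CPM, Sparc at 86.7 to 127 CPM with a median of 107 and Mmp2 at 31.8 to 61.2 CPM with a median of 54.2. The call of Pdgfra in WT (−1.04 ± 0.25, adjusted p 0.00051) stood next to the 2-fold limit and was lost by size when any of 4 of the 15 libraries was left out. Thy1 was at 0 in 2 of the 8 mTEClo WT libraries and at most 2.27 CPM in the rest, and it measured 1.09, 1.87, 1.80 and 2.94 CPM in mTEClo AireKO. The difference in WT was 5.20 ± 0.34 on the log2 scale (adjusted p 5.1e-14). Thymocyte markers moved the same way as Thy1, with 6 of 7 tested called higher in mTEChi WT and summed CPM of 17.6 to 28.4 in mTEClo and 74.4 to 94.4 in mTEChi, and other blood cell markers summed to 51.3 to 88.6 and 307 to 385 CPM. Mural cell markers moved against Pdgfrb, with summed CPM of 1290 to 1630 in mTEClo WT and 859 to 1040 in mTEChi WT. The part of these lists in the results was not tested.

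In neonatal Ctrl, the mTEChi to mTEClo log2 difference was 1.79 for Bgn and 1.29 for Pdgfrb, and −2.66 for Mmp2 and −1.83 for Fstl1. In EEDcKO it was 3.10 for Thy1, 2.11 for Pdgfrb and −2.15 for Mmp2, and in AireEEDdKO 1.63, 1.04 and −3.97. Pdgfrb and Thy1 thus lay higher and Mmp2, Fstl1 and Sparc lower in mTEChi in all 3 genotypes. Bgn lay higher in mTEChi in Ctrl and EEDcKO and lower in AireEEDdKO, at −2.52, and Dcn lay higher in Ctrl, at 0.79, and lower in EEDcKO, at −1.42. At least 2-fold higher in mTEChi were 3 members in Ctrl, 3 in EEDcKO and 2 in AireEEDdKO, where 18.9%, 17% and 13.8% of all genes were. At least 2-fold lower were 2, 4 and 5 members, where 7.9%, 9.28% and 13.7% of all genes were.

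Across the 24 neonatal libraries, levels of the members fell into sets that rose and fell together, given here as a description over libraries that share groups. On log2(CPM + 1), Pearson's r was 0.89 between Sparc and Mmp2, 0.82 between Fstl1 and Mmp2 and 0.79 between Pdgfra and Sparc. Vim ran against them, with −0.84 to Fstl1, −0.77 to Mmp2 and −0.74 to Sparc. In the 23 adult libraries, Pdgfrb and Thy1 had an r of 0.97, and Pdgfrb ran against Fstl1 at −0.94.

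The genes whose neonatal pattern was most like each member were found among those with a mean of at least 5 CPM in their highest group. Dcn was most like Lum, a proteoglycan of the same family, at r = 0.95, and Rasa3 had 0.91. Bgn was most like Col6a3 (0.92), Col1a1 (0.92) and Wwc1 (0.91). For the matricellular genes, Sparc was most like Igfbp3 (0.97), Tns1 (0.95) and Mrc2 (0.94), Fstl1 like Srgap3 (0.98), Dzip1 (0.98) and Cdh3 (0.97), and Postn like Rasl11a (0.81), Col3a1 (0.81) and Irak4 (0.80). Pdgfra was most like Sfmbt2 (0.93), Lbp (0.92) and Fbln2 (0.92), whereas Pdgfrb was most like Wdfy4 (0.94), Lrrc15 (0.93) and Dscam (0.93). Mmp2 was most like Rcan1 (0.97) and Grhl2 (0.97), Vim like Il1rn (0.93), Cs (0.91) and Tnfaip8 (0.90), and Thy1 like Igsf21 (0.93), Klk4 (0.92) and Sct (0.92). Collagens or other matrix genes were among the nearest named for Dcn, Pdgfra, Postn and Bgn.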

How the data were processed

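Full-length RNA-seq libraries of sorted mTECs were analysed from 2 tables of raw gene counts. Per the labels and the study's methods, the authors trimmed reads with fastp 0.20.0, aligned them to mm10 with STAR 2.7.3a, removed poorly mapped reads with SAMtools 1.9 and duplicates with Picard 2.21.1, and counted reads per Ensembl gene without strand with HTSeq 0.11.2. The deposited values used here are these counts. The Ensembl release is not given in the sources used here. Normalized tables were not used. Removal of duplicates can lower the counts of abundant genes, and counting error is the only error that floors and counting intervals cover.

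Each table was fitted apart in R 4.3.3 with edgeR 4.0.16 (filterByExpr, TMM, quasi-likelihood F-test, Benjamini-Hochberg adjustment over all genes tested), with all groups sharing 1 estimate of the spread. TMM factors lay between 0.871 and 1.07. CPM values, and sums of them over lists, used total counts scaled by the TMM factors. The fits were tested on simulated data. Alternatives were RLE factors, library size alone, no filter, no minimum change, DESeq2 1.42.0, only the groups compared, age as a term, each library left out and a replicate block. Libraries of 1 age class alone were added after seeing the data. Same-numbered libraries deviated together in every pair, with correlations of at least 0.1, for neonatal mTEChi AireEEDdKO and AireKO, for neonatal AireEEDdKO mTEChi and mTEClo, and for adult AireKO mTEChi and mTEClo, so the numbers were taken to pair them from the data, not the labels. In these groups same-numbered libraries also had the same age. The 10 genes and the marker lists were chosen with earlier results of these data known. All 10 genes are named, together with the most abundant tested genes of the collagen and transcription factor lists and the 3 genes most like each member, of which some are not reported here.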

Additional observations from a re-analysis of the deposited data

Results flagged for a closer look

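Of 60 groups of 4 to 10 libraries looked at for single members, 6 held a library far from the others, where chance gives about 1 in 20. In neonates these were Pdgfrb in mTEClo EEDcKO replicate 4, at 6.26 CPM with the nearest library at 22.1 CPM, and Mmp2 in mTEChi Ctrl replicate 4, at 17.3 CPM with the nearest at 9.29 CPM. In adults they were Pdgfra in mTEChi WT replicate 7, at 13.1 CPM against 7.01 CPM, Pdgfrb in mTEClo WT replicate 5, at 16.0 CPM against 10.8 CPM, Fstl1 in mTEClo AireKO replicate 1, at 171 CPM against 165 CPM, and Postn in mTEChi AireKO replicate 1, at 2.14 CPM against 1.66 CPM.

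The EED effect on Sparc in mTEChi differed with and without Aire, by 2.61 on the log2 scale in the interaction test. In 3 further cases the mTEChi and mTEClo ranges did not overlap in each of a pair of genotypes, with the order of the fractions reversed between the genotypes. These differences were not tested. Bgn differed between mTEChi and mTEClo by 2.32 in adult WT and by −3.93 in adult AireKO. In neonates Bgn differed by 1.79 in Ctrl and −2.52 in AireEEDdKO, and Dcn by 0.79 in Ctrl and −1.42 in EEDcKO.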

How the results depend on the processing

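Of 38 calls of members, 33 were kept in every alternative, and 0 of the 54 reversed values belonged to a called member. The 5 not kept were Pdgfra in 3 comparisons, the Sparc interaction and Dcn in adult mTEChi AireKO against WT, which with age in weeks as a term changed by 1.00 (under 2-fold). Pdgfra in mTEChi EEDcKO against Ctrl missed the threshold with RLE factors (adjusted p 0.054) and library size alone (adjusted p 0.058). Depth limits Pdgfra, Bgn, Postn, Sparc and Mmp2 in AireKO mTEChi, which rest on few counts. With library size alone the median of all genes moved to −0.17 in neonatal and in adult mTEChi AireKO comparisons.

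In adult mTEClo AireKO against WT, the members called numbered 2 with no minimum change, 1 with no filter and 1 with DESeq2. There Mmp2 was −0.02 with no filter, −0.01 with DESeq2 and with only the groups compared, −0.48 with age in weeks and −0.43 with mitochondrial libraries alone. With age in weeks and with those libraries alone, Dcn was −0.01 and −0.86, Vim 0.16 and 0.48, Sparc −0.13 and −0.03, and Bgn −0.10 and −0.96. Dcn in adult AireKO mTEChi against mTEClo was −0.24 without mitochondrial libraries. Vim in mTEChi EEDcKO against Ctrl was 0.19 at 1 to 3 days, and Fstl1 in mTEChi AireEEDdKO against EEDcKO was −0.10 with library size alone, −0.02 with no filter and 0 with only the groups compared. The replicate block, where numbers are only shared, gave the interaction as −0.04 for Dcn and −0.26 for Mmp2, Pdgfra in mTEChi EEDcKO against Ctrl as 1.44 (adjusted p 0.15, members called 3 in place of 4), and 1 in place of 2 members at least 2-fold apart in mTEClo AireEEDdKO against EEDcKO.

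With each library left out in turn, mTEChi EEDcKO against Ctrl ranged from −0.35 to 0.52 for Bgn, −0.84 to 0.21 for Postn and −0.17 to 0.03 for Vim. AireEEDdKO against AireKO ranged from −0.21 to 0.13 for Pdgfrb and −0.29 to 1.61 for Postn, AireEEDdKO against EEDcKO from −0.03 to 0.13 for Fstl1 and −1.70 to 0.32 for Postn, and AireKO against Ctrl from −0.40 to 0.06 for Thy1. The interaction ranged from −0.25 to 0.28 for Dcn, −0.70 to 0.65 for Mmp2, −0.09 to 0.26 for Pdgfrb and −0.07 to 2.01 for Postn, with 0 to 1 members called. Adult mTEClo AireKO against WT ranged from −0.15 to 0.11 for Mmp2 and −0.50 to 0.12 for Vim, with 0 to 1 members called, and mTEClo AireEEDdKO against EEDcKO held 1 to 2 members at least 2-fold apart. The cause of these changes was not tested.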
